A study of Mus musculus with 18 samples.

Results

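The HIN-200 genes of the mouse, also called the Ifi200 or PYHIN genes, were followed across wildtype and Ctbp1/2 dKO J774.1 macrophages. The members were the 9 rows of the expression table whose symbol was Aim2, Mndal, Ifi203, Ifi204, Ifi205, Ifi207, Ifi209, Ifi211 or Ifi213, out of 18204 genes. Proteins of this family carry a HIN domain that binds DNA, in most members behind a pyrin domain that binds other pyrin domains. Their genes lie side by side in the genome, arose by repeated duplication and are known as targets of interferon in macrophages. Because the copies resemble each other, sequencing reads may match more than one of them, so the share of sequence common to the members is given before their levels.

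J774.1 is a mouse macrophage cell line. CTBP1 and CTBP2 are transcriptional corepressors with a dehydrogenase fold, and the dKO cells were made from J774.1 with CRISPR-Cas9 and grown from single cells. The study's methods name wildtype as well as knockout clones. How many clones the sequenced samples came from, and whether the wildtype samples are such a clone or the starting line, is not given in the sources used here, so the loss of CTBPs and other differences between the cells compared cannot be told apart. Wildtype and dKO cells were treated for 4 h with vehicle (PBS/DMSO), with MTOB at 1.5 mM or with 4-Cl-HIPP at 250 µM, which gave 6 groups of 3 samples. MTOB is a keto acid and 4-Cl-HIPP a chlorophenyl oxime acid, and both are used to inhibit the dehydrogenase of CTBPs. The question behind the design was whether an inhibitor acts through CTBPs, that is, whether its effect is also present in dKO cells.

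Levels are taken as TPM, which are scaled within a sample and per transcript length. The column headers call them scaled TPM, and the unit was read from the sample totals of 999766 to 999897, so comparisons of level between genes rest on that reading. TPM keep no record of how deeply a sample was sequenced. Between replicates r was 0.983 to 0.987 on the log2(TPM + 1) scale, and no library was identical to another. The methods speak of biological triplicates, and the labels number the samples of a group without naming separate cultures, so p-values measure the spread between these samples. Tests used limma on log2(TPM + 1) with Benjamini-Hochberg adjustment over 16383 genes, and a gene was called at an adjusted p below 0.05 and a fold change above 1.5. For a gene with few TPM, the added 1 makes the log2 fold change smaller than that of its TPM.

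The labels were checked first on the targeted genes and on macrophage markers. Under vehicle, Ctbp1 was at 212, 238 and 204 TPM in wildtype and at 24.4, 25.2 and 25.6 TPM in dKO cells. Ctbp2 was at 87.8, 93.2 and 96.9 TPM in wildtype and at 73.5, 74.9 and 79.4 TPM in dKO cells. With MTOB, Ctbp1 had 192, 170 and 199 TPM in wildtype and 25.8, 22.0 and 25.0 TPM in dKO cells, and Ctbp2 had 93.0, 92.1 and 95.5 TPM and 81.9, 68.5 and 72.7 TPM. Both genes were lower in each dKO sample than in each wildtype sample of any treatment. With 4-Cl-HIPP, Ctbp1 had 204, 216 and 236 TPM in wildtype and 22.4, 31.5 and 19.7 TPM in dKO cells, and Ctbp2 had 88.0, 89.7 and 89.0 TPM and 71.7, 75.6 and 71.0 TPM. The difference in Ctbp1 was far larger than that in Ctbp2, which did not reach the fold threshold. The paper reports a premature stop and a frameshift in both genes, and the loss of both proteins on a western blot. The macrophage genes Csf1r (612 to 942 TPM), Cd68 (542 to 703 TPM), Spi1 (209 to 314 TPM) and Tyrobp (614 to 695 TPM) were high in all 18 samples. Lyz2 ranged from 465 to 687 TPM and Fcgr1 from 30.7 to 62.6 TPM. Adgre1 ranged from 6.70 to 107 TPM, Itgam from 11.3 to 65.3 TPM and Cd14 from 91.6 to 857 TPM. Mertk, also on the list of macrophage markers, was not analysed here. Of the markers of other lineages in the table, the T cell gene Cd3d had the highest value in any sample, 2.07 TPM, and its median was 0.

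All 9 members lie within 681 kb of chromosome 1, from 173178445 to 173859456 in the genome build GRCm39. Aim2 (ENSMUSG00000037860) opens the cluster on the plus strand, from 173178445 to 173293930. It is followed by Ifi213 (173393846 to 173426881), Ifi209 (173458380 to 173475494), Ifi207 (173550990 to 173569383) and Ifi204 (173574859 to 173594610). Mndal (173676539 to 173708447), Ifi211 (173723911 to 173740612), Ifi203 (173747971 to 173770436) and Ifi205 (173839549 to 173859456) close it. Ifi209 is on the plus strand as well, and the other 7 members are on the minus strand. The table also held Ifi202b and Ifi208 of this family and, inside the same span, the pseudogenes Ifi203-ps, Gm7897 and Gm18445, whereas Ifi206 and Ifi214 were not analysed here. Libraries were unstranded, and 5 annotated genes overlap Aim2, Ifi209 or Mndal, none of them in the table.

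**Figure D1:**
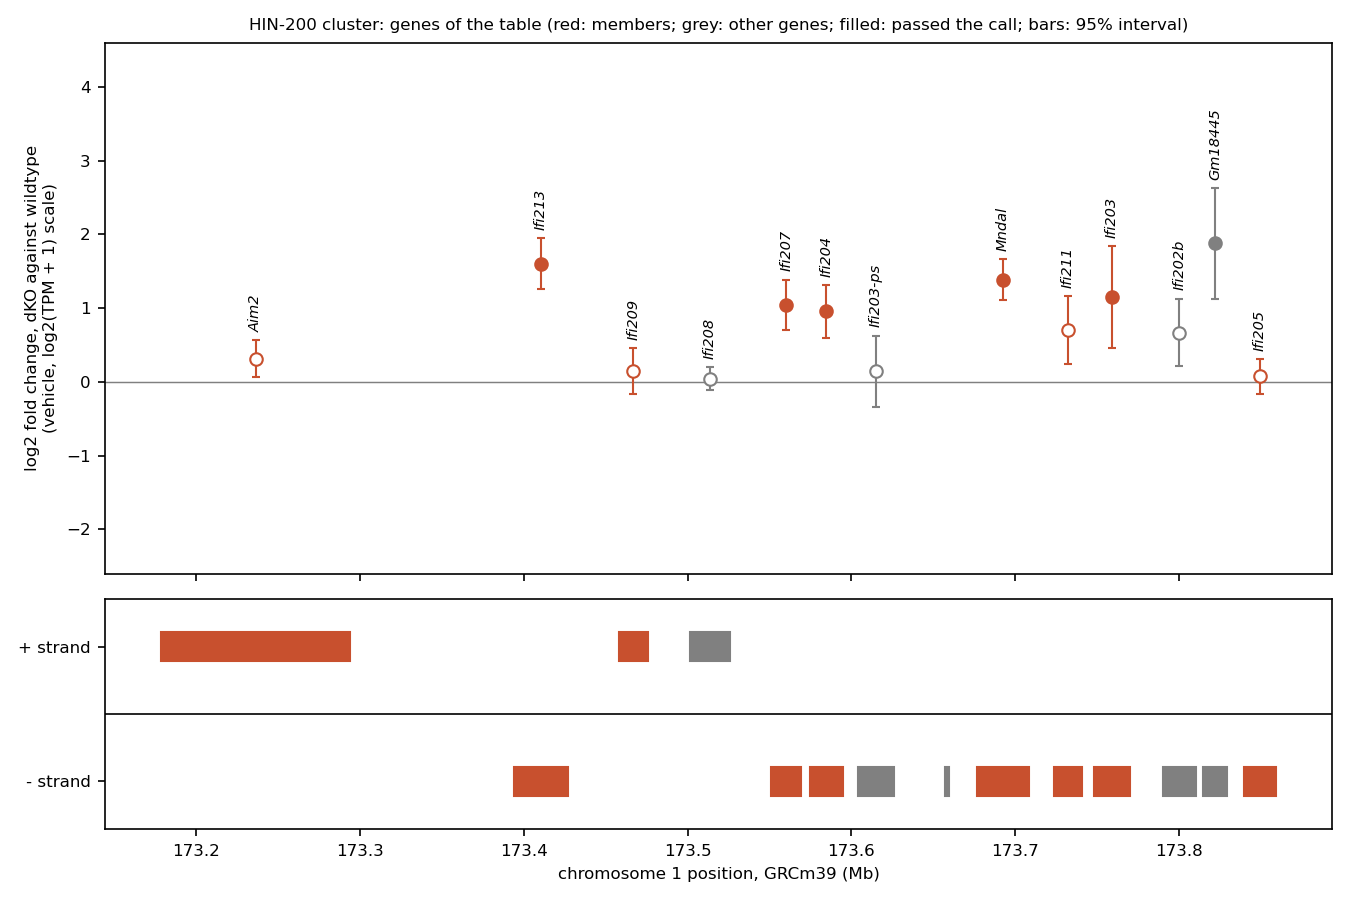
Upper panel, log2 fold change between dKO and wildtype cells under vehicle (vertical axis, log2(TPM + 1) scale, with the 95% interval) for the genes of the table inside the cluster, placed at their position on chromosome 1 (horizontal axis, Mb). Lower panel, the extent and strand of each gene. Red marks the 9 members, grey the other genes, and filled points passed the call, which 5 members and Gm18445 did. Gm7897, the short grey gene between Ifi203-ps and Mndal, was below the expression limit and has no point.

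How much sequence each member shares with other genes was read from the annotated transcripts. The transcripts of each member were divided into all their words of 100 bases, the length of a sequencing read, and each word was searched on both strands in the transcripts of all other genes. Aim2 shared 0% of its 7229 words with another gene, Ifi207 0.763%, Ifi213 2.45%, Ifi203 5.48% and Mndal 7.16%. For these 5 genes most words occur in 1 annotated gene only. The words were pooled over all annotated transcripts of a gene, and the reads were paired, so these shares do not measure read assignment. Whether the sequence of the J774.1 cells differs here from the reference was not tested. Ifi204 shared 11.8% of its words, mainly with Ifi211, where 10.8% of its words were found. Ifi205 shared 14.4%, all of it found in Ifi211, and Ifi209 shared 16.4%, found in Ifi214. Ifi211 stood apart, since 51.8% of its 1975 words occur elsewhere, 629 of them in Ifi205 and 394 in Ifi204. Most words of Ifi204, Ifi205 and Ifi209 are still found in 1 annotated gene only. The level of Ifi211 is therefore the most uncertain, since it may depend on how the quantification divided shared reads. Those of Ifi205, Ifi209 and Ifi204 may depend on this in part, and how shared reads were divided was not tested.

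**Figure D2:**
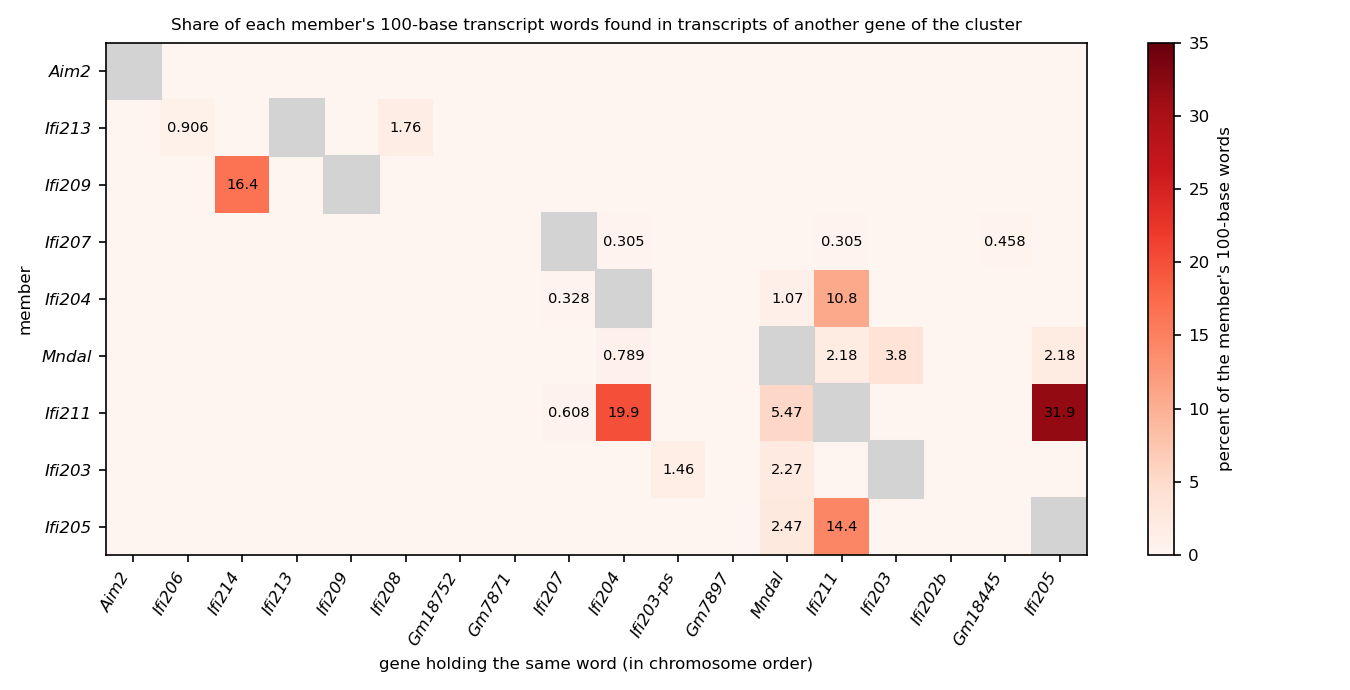
Percent of the 100-base words of each member (rows) that occur in transcripts of another gene of the cluster (columns, in chromosome order); grey cells mark a gene against itself, and empty cells no shared word. The darkest cells are those of Ifi211 with Ifi205 and with Ifi204, of Ifi209 with Ifi214 and of Ifi205 with Ifi211, whereas the row of Aim2 is empty.

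The members differed widely in level. All 9 exceeded the expression limit, the 10th percentile of the authors' mean normalized count (0.222), but only 6 had a mean normalized count of at least 10. These were Aim2 (347), Mndal (280), Ifi207 (100.5), Ifi203 (80.7), Ifi204 (32.8) and Ifi213 (25.2). Ifi211 had a mean normalized count of 3.52 and was above 0 in 17 samples. Ifi209, at 0.763, was above 0 in 6 samples and never exceeded 0.605 TPM, and Ifi205, at 0.302, was above 0 in 3 samples, each of them dKO, with at most 0.416 TPM. At such values a difference in Ifi205 or Ifi209 was not detectable.

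Aim2 and Mndal carried most of the family's RNA in each group. The 9 members summed to 109 ± 14.5 TPM in wildtype and 196 ± 12.7 TPM in dKO cells under vehicle (mean and SD of 3 samples). Aim2 made up 60.3% of the sum in wildtype and 41.7% in dKO, and Mndal 27.5% and 41.0%. Under MTOB the sums were 124 ± 15.4 and 189 ± 12.7 TPM in that order, and under 4-Cl-HIPP 112 ± 2.41 and 176 ± 13.4 TPM. By group mean Aim2 came before Mndal in 5 groups, and in dKO cells under MTOB Mndal came first. In dKO cells under vehicle or MTOB the samples of both genes overlapped, so neither order exceeds the spread. Ifi203, Ifi207 and Ifi204 followed, mostly with group means between 1.5 and 16 TPM, and Ifi203 and Ifi207 exchanged places between groups. Ifi213 stood below them in each wildtype group, and Ifi211, Ifi209 and Ifi205 were lowest in every group.

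**Figure D3:**
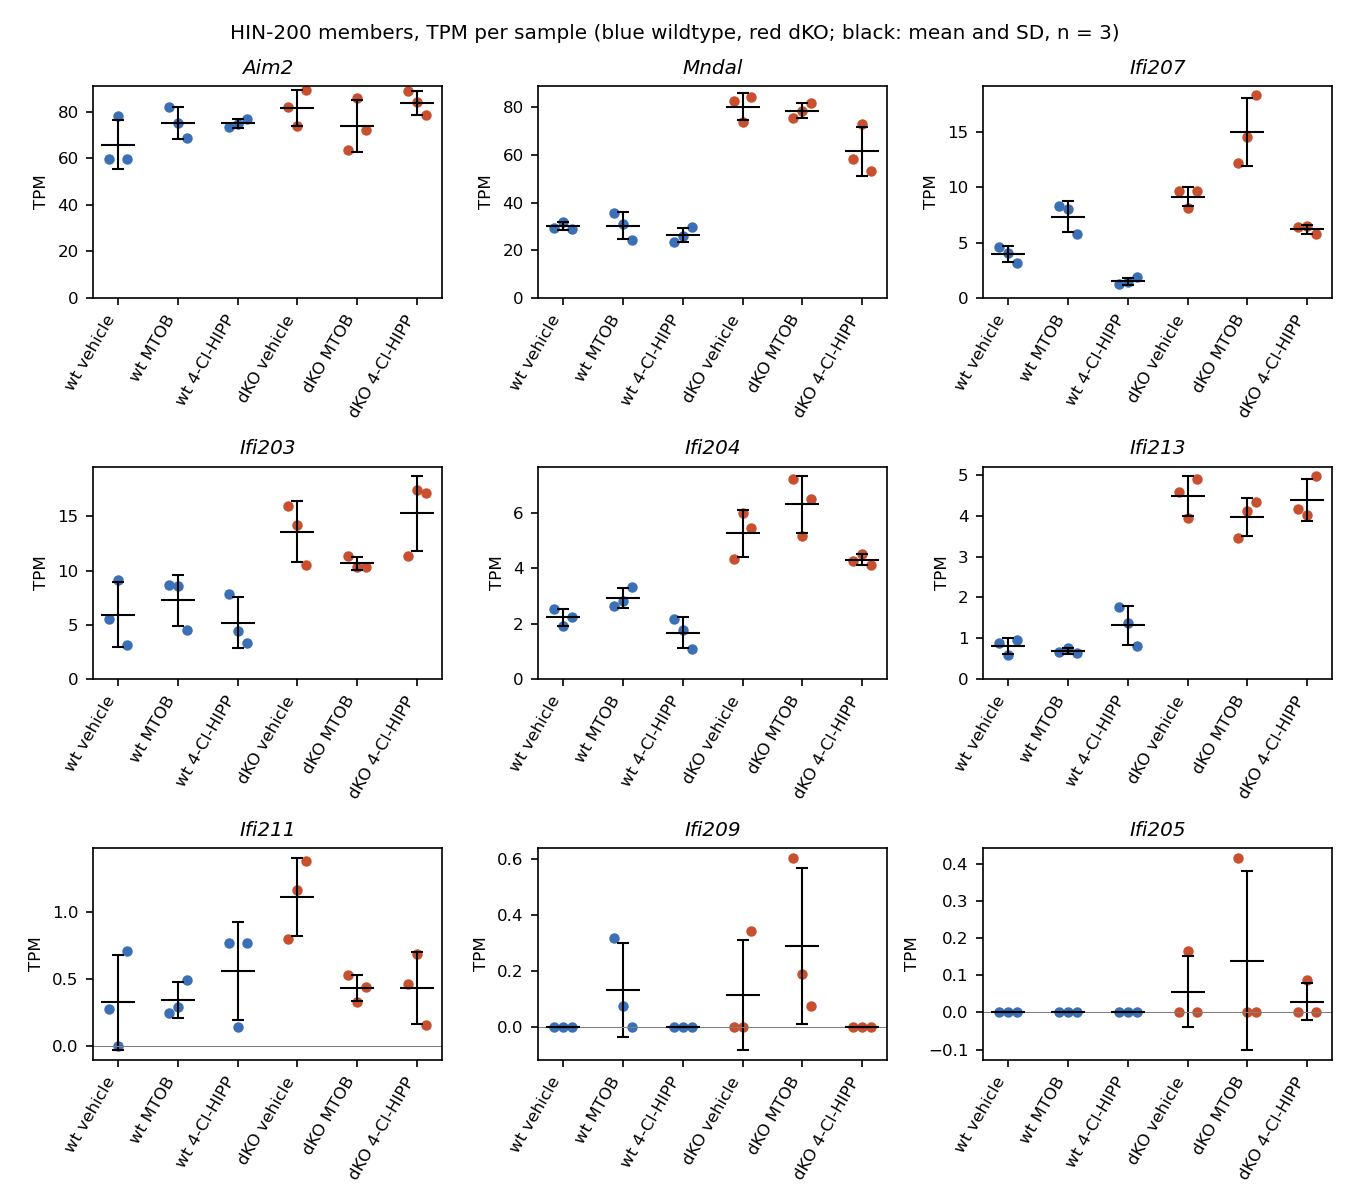
TPM of the 9 members in each of the 18 samples, by group (horizontal axis; each panel has its own TPM axis). Blue points are wildtype and red points dKO samples, and black lines give the mean and SD of 3 samples. Mndal, Ifi204 and Ifi213 of dKO cells lie above those of wildtype cells under every treatment, Ifi207 also shifts with each inhibitor, and the Aim2 points of the genotypes overlap under vehicle and MTOB.

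Aim2 is the member with a known signalling role in the inflammasome: on binding double-stranded DNA it recruits the adaptor encoded by Pycard and, through it, caspase-1. Aim2 had 59.6, 78.0 and 59.7 TPM in wildtype and 81.8, 73.9 and 89.2 TPM in dKO cells under vehicle, and the groups overlapped. The log2 fold change was 0.32 (limma, SE 0.12; Benjamini-Hochberg adjusted p = 0.114), which was not called. With MTOB it had 82.0, 75.0 and 68.5 TPM in wildtype and 63.5, 85.9 and 72.0 TPM in dKO cells, and with 4-Cl-HIPP 73.2, 74.7 and 77.0 TPM and 88.7, 84.0 and 78.4 TPM. Aim2 was not called in any of the 9 comparisons. The 95% interval of its genotype difference under vehicle, with all samples, ran from 0.07 to 0.57 on the log2 scale, below the threshold of 0.585. With single libraries left out, the difference ran from 0.25 to 0.44. Its adjusted p (limma, Benjamini-Hochberg) then went down to 0.0226, and it was not called in any of these fits.

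Between genotypes, 5 of the 9 members were higher in dKO cells under vehicle, namely Ifi213, Mndal, Ifi203, Ifi207 and Ifi204, and none was called lower. Of all genes tested, 3.28% were called higher and 1.55% lower in this comparison. The median log2 fold change was 0.95 over the 9 members and 0.01 over all genes. Under MTOB 4 members were called, all higher in dKO cells, where 3.33% of all genes were called higher and 1.62% lower. Under 4-Cl-HIPP 5 members were called, again all higher, against 3.11% of all genes called higher and 1.58% lower. These comparisons use the same cell lines, and they are no repeats of each other with respect to clones.

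Ifi213 showed the largest genotype difference among the members under vehicle. It had 0.875, 0.581 and 0.962 TPM in wildtype and 4.58, 3.94 and 4.90 TPM in dKO cells, so each dKO sample was above each wildtype sample. The TPM ratio was 5.55 and the log2 fold change 1.60 (limma, SE 0.16; Benjamini-Hochberg adjusted p = 4.70e-06). With MTOB the values were 0.658, 0.766 and 0.629 TPM in wildtype and 3.46, 4.11 and 4.34 TPM in dKO cells, and the log2 fold change was 1.56 (adjusted p = 6.23e-06, SE 0.16). With 4-Cl-HIPP they were 1.76, 1.37 and 0.807 TPM in wildtype and 4.18, 4.01 and 4.97 TPM in dKO cells, with a log2 fold change of 1.24 (adjusted p = 6.56e-05, SE 0.16). The groups were separate under all 3 treatments.

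Mndal, a nuclear protein related to the human myeloid nuclear differentiation antigen, was the abundant member that differed. Under vehicle it had 29.3, 31.9 and 28.9 TPM in wildtype and 82.5, 73.7 and 84.3 TPM in dKO cells. The dKO mean was 2.67 times the wildtype mean, with a log2 fold change of 1.39 (limma, SE 0.13; Benjamini-Hochberg adjusted p = 2.14e-06). With MTOB it had 35.5, 31.1 and 24.5 TPM in wildtype and 75.6, 78.3 and 81.8 TPM in dKO cells, with a log2 fold change of 1.36 (adjusted p = 2.55e-06, SE 0.13). Under 4-Cl-HIPP it had 23.5, 26.2 and 29.6 TPM in wildtype and 58.5, 73.1 and 53.3 TPM in dKO cells, and the log2 fold change was 1.19 (adjusted p = 1.06e-05, SE 0.13). The dKO samples were above the wildtype samples under all 3 treatments. The dKO samples with 4-Cl-HIPP were all below those with vehicle, by a log2 fold change of -0.38 (limma, SE 0.13; Benjamini-Hochberg adjusted p = 0.327), which was not called.

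Ifi204, the mouse gene often set beside human IFI16, a nuclear DNA sensor, had lower levels. It had 2.52, 1.91 and 2.26 TPM in wildtype and 4.35, 6.01 and 5.46 TPM in dKO cells under vehicle, again without overlap. With MTOB it had 2.64, 2.83 and 3.32 TPM in wildtype and 7.24, 5.19 and 6.52 TPM in dKO cells, and with 4-Cl-HIPP 2.18, 1.78 and 1.07 TPM and 4.28, 4.53 and 4.12 TPM, also without overlap. The log2 fold change was 0.95 (limma, SE 0.17; Benjamini-Hochberg adjusted p = 0.00114) under vehicle, 0.89 (adjusted p = 0.00209) under MTOB and 1.01 (adjusted p = 0.000715) under 4-Cl-HIPP. Its partner in shared sequence, Ifi211, had 0.276, 0 and 0.709 TPM in wildtype and 0.804, 1.17 and 1.38 TPM in dKO cells under vehicle. All 3 dKO samples of Ifi211 were above the wildtype samples, yet its log2 fold change of 0.70 (limma, SE 0.22; Benjamini-Hochberg adjusted p = 0.0517) missed the call. The TPM ratio was 3.40, and the log2 fold change ran from 0.51 to 1.93 over the alternatives. The highest value came with a pseudocount of 0.1 and was not called. Ifi211 was below Ifi204 in every sample; how reads of their common sequence were divided between them was not tested. Ifi211 passed the call without wildtype vehicle replicate 3, with an adjusted p of 0.0179, and over all alternatives that p ran up to 0.214.

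Ifi203 varied most between replicates of the members that differed. It had 5.50, 9.17 and 3.16 TPM in wildtype and 16.004, 14.3 and 10.5 TPM in dKO cells under vehicle, and the lowest dKO sample was just above the highest wildtype sample. The log2 fold change was 1.15 (limma, SE 0.32; Benjamini-Hochberg adjusted p = 0.0322). Leaving out a single library ended this call in 4 of 6 cases: the adjusted p was 0.0825 without wildtype vehicle replicate 1, 0.158 without wildtype vehicle replicate 3, 0.117 without dKO vehicle replicate 1 and 0.0925 without dKO vehicle replicate 2. With 4-Cl-HIPP, Ifi203 had 7.85, 4.43 and 3.28 TPM in wildtype and 11.3, 17.5 and 17.1 TPM in dKO cells, with a log2 fold change of 1.442 (adjusted p = 0.00782, SE 0.32). With MTOB the values were 8.66, 8.57 and 4.50 TPM and 11.4, 10.3 and 10.3 TPM, without overlap, and the log2 fold change of 0.55 (limma, SE 0.32; Benjamini-Hochberg adjusted p = 0.365) was not called and ran from 0.28 to 0.69 when 1 library was left out.

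Ifi207 was the only member called for an inhibitor, and it was called for both. In wildtype cells it had 4.62, 4.11 and 3.15 TPM with vehicle, 8.29, 8.06 and 5.76 TPM with 1.5 mM MTOB and 1.25, 1.47 and 1.87 TPM with 250 µM 4-Cl-HIPP. In dKO cells it had 9.66, 8.17 and 9.70 TPM with vehicle, 12.2, 14.5 and 18.3 TPM with MTOB and 6.45, 6.48 and 5.76 TPM with 4-Cl-HIPP. In both genotypes each MTOB sample was above and each 4-Cl-HIPP sample below the vehicle samples, and within each treatment each dKO sample was above the wildtype samples. The doses of the inhibitors differ, so no test was made between them.

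In wildtype cells MTOB raised Ifi207 1.86-fold in TPM, with a log2 fold change of 0.75 (limma, SE 0.16; Benjamini-Hochberg adjusted p = 0.00856). This was 1 of 9 members called, where 1.55% of all genes were called higher and 0.452% lower. In dKO cells it rose 1.64-fold, with a log2 fold change of 0.64 (adjusted p = 0.0245, SE 0.16), again 1 of 9 members, against 1.15% of all genes called higher and 0.452% lower. The dKO call ended when 1 library was left out in 5 of 6 cases: the adjusted p was 0.0516 without dKO vehicle replicate 1, 0.0523 without dKO vehicle replicate 3, 0.0547 without dKO MTOB replicate 2 and 0.103 without dKO vehicle replicate 2 or dKO MTOB replicate 3. The log2 fold change without dKO vehicle replicate 2 was 0.57, and without dKO MTOB replicate 3 it was 0.50. The difference of the MTOB effect, wildtype minus dKO, was 0.11 with a 95% interval from -0.37 to 0.59 (adjusted p = 0.9749, limma, Benjamini-Hochberg).

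With 4-Cl-HIPP, Ifi207 in wildtype cells fell to 0.386 of its vehicle level, with a log2 fold change of -0.97 (limma, SE 0.16; Benjamini-Hochberg adjusted p = 0.0139). Only 0.0305% of all genes were called lower in this comparison and 0.11% higher, and Ifi207 was the single member called. Without wildtype vehicle replicate 1 or 2, or without wildtype 4-Cl-HIPP replicate 1 or 2, the adjusted p became 0.0717, 0.0577, 0.0659 and 0.0686 in that order, and the log2 fold change stayed between -1.09 and -0.87 over all 6 omissions. In dKO cells the log2 fold change was -0.49 (adjusted p = 0.311, SE 0.16), which was not called. No member was called there by limma, and 3 members, Ifi207, Ifi211 and Mndal, had an unadjusted p below 0.05, all lower with 4-Cl-HIPP. Of all genes, 0.122% were called higher and 0.0305% lower in that comparison, and 8.48% had an unadjusted p below 0.05. The difference of the 4-Cl-HIPP effect, wildtype minus dKO, was -0.48 for Ifi207 with a 95% interval from -0.96 to 0.01 (adjusted p = 1, unadjusted p = 0.0532, limma, Benjamini-Hochberg). Over the alternatives, leave-one-out included, this difference ran from -0.77 to -0.38 and was not called in any. A call in wildtype cells alone thus does not show that the effect differed between genotypes.

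Differences of an inhibitor effect between genotypes were not called for any member. For MTOB, 0 of 9 members were called by limma and 0 had an unadjusted p below 0.05, where 0.0916% of all genes were called and 6.85% had an unadjusted p below 0.05. For 4-Cl-HIPP, 0 of 9 members were called and 1 had an unadjusted p below 0.05, against 0% of all genes called and 4.52% with an unadjusted p below 0.05. The latter member was Ifi211, with a difference of 0.81 on the log2 scale (adjusted p = 1). In dKO cells Ifi211 had 0.804, 1.17 and 1.38 TPM with vehicle, 0.533, 0.332 and 0.442 TPM with MTOB and 0.463, 0.687 and 0.158 TPM with 4-Cl-HIPP, so both inhibitor groups were below vehicle, at levels near 1 TPM and with most of its sequence shared.

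The genotype difference in Ifi207 was present with each treatment. The log2 fold change between dKO and wildtype cells was 1.04 (limma, SE 0.16; Benjamini-Hochberg adjusted p = 0.000341) with vehicle, 0.93 (adjusted p = 0.000921, SE 0.16) with MTOB and 1.52 (adjusted p = 7.93e-06, SE 0.16) with 4-Cl-HIPP. Ifi207 shared less than 1% of its words with other annotated genes, but how reads were assigned to it was not tested.

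When each comparison was fitted on its own groups alone, the calls of Ifi207 for both inhibitors ended. The adjusted p was then 0.101 for MTOB in wildtype, 0.138 for MTOB in dKO and 0.220 for 4-Cl-HIPP in wildtype cells. Over the other alternatives tried, leave-one-out included, these adjusted p-values went down to 0.00413, 0.0145 and 0.00431. The same fit ended the genotype calls of Ifi203 under vehicle (adjusted p = 0.140) and 4-Cl-HIPP (0.0633), whose lowest values over the alternatives were 0.00875 and 0.00323, and that of Ifi207 under MTOB (0.0603, lowest 0.000424).

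Neighbouring genes that are not among the 9 members were looked at for sequence and position, and Gm18445 and Ifi202b are named after their values were seen. Gm18445, an unprocessed pseudogene on the minus strand from 173814492 to 173829538, between Ifi202b and Ifi205, had 0.424, 0.809 and 0.468 TPM in wildtype cells with vehicle and 2.39, 7.05 and 8.51 TPM with MTOB. In dKO cells it had 3.42, 5.94 and 5.09 TPM with vehicle and 28.1, 27.7 and 26.8 TPM with MTOB. Every MTOB sample was above the vehicle samples of its genotype. The log2 fold change with MTOB was 2.03 (limma, SE 0.35; Benjamini-Hochberg adjusted p = 0.00169) in wildtype and 2.32 (adjusted p = 0.000689, SE 0.35) in dKO cells, and between genotypes under vehicle it was 1.88 (adjusted p = 0.00188, SE 0.35). Of its 675 words, 18 were shared, all with Ifi207, and whether its signal came from reads of a coding member that differ from the reference was not tested. Its span and that of Ifi202b also lie across the annotated lncRNA Gm70977 of the other strand (173789298 to 173826545), which is not in the table and shares no 100-base word with either; reads from its unspliced RNA were not tested for. The wildtype call with MTOB ended in the fit on its own groups (adjusted p = 0.0750, against 0.000146 as the lowest over the alternatives).

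Ifi202b encodes a family protein with HIN domains but no pyrin domain, and it shared 0% of its words with other genes. It was low, at 0.698, 0 and 0.197 TPM in wildtype and 0.479, 1.27 and 1.43 TPM in dKO cells with vehicle. With MTOB it had 0.830, 1.04 and 0.888 TPM and 2.32, 1.96 and 2.02 TPM, and with 4-Cl-HIPP 0.354, 0 and 0.183 TPM and 1.08, 1.67 and 1.10 TPM. Only the genotype difference with 4-Cl-HIPP was called, with a log2 fold change of 0.95 (limma, SE 0.21; Benjamini-Hochberg adjusted p = 0.00802). The genotype differences with vehicle (0.67, adjusted p = 0.0627) and with MTOB (0.69, adjusted p = 0.0514) narrowly missed the call in the same fit. Over the alternatives the difference with 4-Cl-HIPP ran from 0.83 to 2.53, highest with a pseudocount of 0.1. Ifi208 stayed at or below 0.158 TPM and Ifi203-ps at or below 0.880 TPM in all samples.

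Because several members moved together between genotypes, their promoters were searched for the letters of 2 motifs of interferon signalling. Promoters were the 250 bases before and 50 bases after the start of the canonical transcript in GRCm39 (Gencode annotation), searched on both strands. The interferon-stimulated response element was written as GAAANNGAAA and the gamma-activated sequence as TTCNNNGAA. The first occurred in 7 of 9 members, all but Aim2 and Ifi209, and in 3.84% of 21770 promoters of protein-coding genes. The second occurred in 0 of 9 members and in 8.82% of the promoters. The promoters of these duplicated genes are not independent of each other, and a match is a description of letters, not of a bound site.

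The windows below show the match in capitals with 15 bases on either side, read on the minus strand of chromosome 1 in GRCm39, for the 5 members that differed between genotypes and for Ifi211. Mndal (chr1:173707765-173707804) and Ifi203 (chr1:173770069-173770108) have the same 40 bases, as do Ifi204 (chr1:173594622-173594661) and Ifi211 (chr1:173740625-173740664). Ifi207 (chr1:173569392-173569431) differs from Ifi204 at 7 and from Mndal at 13 of 40 bases, and Ifi213 (chr1:173426887-173426926) differs from Mndal at 12, from Ifi204 at 14 and from Ifi207 at 15. The window of Ifi213 is the same as that of Ifi208, which was barely detected.
Ifi207: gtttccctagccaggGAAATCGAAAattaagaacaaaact
Ifi204 and Ifi211: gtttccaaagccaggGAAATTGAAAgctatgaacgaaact
Mndal and Ifi203: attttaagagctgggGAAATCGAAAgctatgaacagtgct
Ifi213: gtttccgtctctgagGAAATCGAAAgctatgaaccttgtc
The match starts 33 bases before the transcript start in Ifi207, 36 in Ifi204, 37 in Ifi211, 54 in Mndal, 57 in Ifi203 and 30 in Ifi213. In Ifi205 the match begins just inside the transcript.

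The genes with the most similar pattern were found for the 3 members with the largest range of group means. Likeness was the root mean square difference of centred log2(TPM + 1) over the 18 samples. Nearest to Ifi207 were Slfn5 (0.277), Parp14 (0.291) and Igtp (0.305), against a root mean square of 0.850 for Ifi207 itself. Nearest to Ifi213 were Eno3 (0.177), Ifi27l2a (0.183) and Klhl23 (0.210), and nearest to Mndal were Ndst1 (0.194), Dhrs9 (0.200) and Lsp1 (0.200).

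Genes of inflammasomes and of DNA sensing were taken as lists. The inflammasome list was drawn up around Aim2 but also held Nlrp3, Nlrc4, Naip5 and Card9, which are not particular to the inflammasome of Aim2. Of the 16 genes of this inflammasome list, 14 were tested, and 0 were called by limma with either inhibitor in either genotype. At an unadjusted p below 0.05 there were 3 (MTOB, wildtype), 4 (MTOB, dKO), 2 (4-Cl-HIPP, wildtype) and 3 (4-Cl-HIPP, dKO). Of all genes, 18.4%, 19%, 8.19% and 8.48% were below that p in the same order. Between genotypes under vehicle 2 of 14 were higher in dKO cells, against 3.28% of all genes: Il18 with a log2 fold change of 0.92 (adjusted p = 0.00307) and Zbp1, a sensor of Z-form nucleic acid, with 1.14 (adjusted p = 0.0418, limma, Benjamini-Hochberg). In that comparison 8 of the 14 had an unadjusted p below 0.05, against 21.4% of all genes, and 7 of the 14 had a log2 fold change above 0, with a median of 0.01, as for all genes. Under MTOB 1 of the 14 was called higher in dKO cells, Il18, against 3.33% of all genes. Zbp1 was not called there (0.85, limma, Benjamini-Hochberg adjusted p = 0.139). Under 4-Cl-HIPP 2 were called higher, Il18 and Zbp1, against 3.11% of all genes. The inflammasome sensor Nlrp3 had the smallest p with either inhibitor: with MTOB its log2 fold change was 0.58 in wildtype (adjusted p = 5.09e-05) and 0.53 in dKO cells (adjusted p = 0.000146), neither past the fold limit on the log2(TPM + 1) scale. In wildtype cells it came close, and the ratio of mean TPM was 1.51, so this gene's place among those not called depends on the scale. With 4-Cl-HIPP the log2 fold change was -0.27 in wildtype (adjusted p = 0.140) and -0.21 in dKO cells (adjusted p = 0.290), neither of them called. Casp1 was not called, and Pycard was not analysed here.

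Of 27 genes of cytosolic DNA sensing, 25 were tested. Ikbke, a kinase that activates interferon regulatory factors, was the single gene called with MTOB, with a log2 fold change of 1.50 (adjusted p = 2.70e-05) in wildtype and 0.65 (adjusted p = 0.0245) in dKO cells. That is 1 of 25 in each genotype, where 1.55% and 1.15% of all genes were called higher. At an unadjusted p below 0.05 there were 11 of 25 in wildtype and 5 in dKO cells, against 18.4% and 19% of all genes. With 4-Cl-HIPP 0 were called by limma, and 3 had an unadjusted p below 0.05 in each genotype, where 8.19% of all genes in wildtype and 8.48% in dKO cells did. Between genotypes under vehicle, Sting1, the adaptor downstream of cyclic dinucleotides, was higher in dKO cells with a log2 fold change of 0.84 (adjusted p = 0.000244), as was Nlrc3 with 0.63 (adjusted p = 0.00550, limma, Benjamini-Hochberg). Xrcc5, a subunit of the Ku complex, was lower with -2.22 (adjusted p = 6.88e-08). These were 2 of 25 called higher and 1 lower, where 3.28% and 1.55% of all genes were. In that comparison 12 of the 25 had an unadjusted p below 0.05, against 21.4% of all genes. The list's median was 0.11 and that of all genes 0.01, but under MTOB and under 4-Cl-HIPP the list's median was -0.03. Under MTOB 0 of the 25 were called higher in dKO cells, against 3.33% of all genes, so neither Sting1 nor Nlrc3 was called. Xrcc5 was called lower there with -2.27 (limma, Benjamini-Hochberg adjusted p = 5.49e-08), against 1.62% of all genes. Under 4-Cl-HIPP 1 was called higher, Sting1, against 3.11% of all genes. Xrcc5 was again the 1 called lower, with -2.37 (limma, Benjamini-Hochberg adjusted p = 3.77e-08), against 1.58% of all genes. The difference of the MTOB effect between genotypes was called for 1 of the 25 genes, Adar, with 0.41 (adjusted p = 0.0448, limma, Benjamini-Hochberg), where 0.0916% of all genes were called. This call needed no fold threshold, and Adar was not called with MTOB in either genotype. Such calls over all genes fell from 15 to 6 with no variance trend, and Adar was not followed in the alternatives.

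The list of interferon receptor and transcription factor genes held 19 genes, and all were tested. Besides receptors and transcription factors it included Jak1, Jak2, Tyk2, Usp18, Socs1, Socs3 and Ifnb1. Between genotypes under vehicle, genes called higher in dKO cells included Jak2 with a log2 fold change of 2.62 (adjusted p = 6.57e-13), Irf7 with 2.20 (adjusted p = 1.50e-07), Usp18 with 2.15 (adjusted p = 4.59e-08) and Irf9 with 0.69 (adjusted p = 3.43e-05, limma, Benjamini-Hochberg). Of all genes, 3.28% were called higher, and the list's median was 0.29, against 0.01 over all genes. Under MTOB 4 of 19 were called higher in dKO cells, Jak2, Irf1, Usp18 and Irf7, against 3.33% of all genes. In the same comparison 1 was called lower, Irf8 with -0.88 (adjusted p = 3.28e-07), against 1.62% of all genes. Under 4-Cl-HIPP 5 were called higher, Jak2, Usp18, Irf7, Irf9 and Irf1, against 3.11% of all genes, and 0 lower. With MTOB in wildtype cells 3 of 19 were higher, where 1.55% of all genes were: Usp18 with 1.58 (adjusted p = 3.40e-06), Irf7 with 1.13 (adjusted p = 0.000323) and Irf8 with 0.90 (adjusted p = 5.79e-07), and in dKO cells 0 were called by limma, with 8 at an unadjusted p below 0.05, against 19% of all genes. The MTOB effect was not called different between genotypes for any of the 19: 0 passed by limma and 7 had an unadjusted p below 0.05, against 6.85% of all genes. A response in wildtype cells alone is therefore not shown. With 4-Cl-HIPP 0 were called in either genotype, with 7 in wildtype and 9 in dKO cells at an unadjusted p below 0.05, where 8.19% and 8.48% of all genes were. Whether any of these genes took part in the differences of the HIN-200 members was not tested.

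Each group had 3 samples of a cell line, and the dKO cells descend from single cells, so CTBP loss and differences between clones, or between a clone and its line of origin, cannot be told apart. RNA was measured in bulk, so fewer cells expressing a gene and less RNA per cell cannot be told apart either. Protein was not analysed here. The inhibitors were given at 1 dose and 1 time, with a vehicle common to both. A call also needed a fold change above 1.5, so a member that was not called may still differ. Counts for the low members Ifi205, Ifi209 and Ifi211 set no useful limit.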

How the data were processed

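RNA of 18 J774.1 samples was sequenced, and samples were grouped by genotype and treatment as labelled. According to the methods and the submitters' processing notes, the authors quantified reads with Salmon 1.9.0 on a Gencode transcriptome of GRCm39, summed them to genes with tximport and compared groups with DESeq2 1.44.0. The authors deposited 1 table. Its TPM, computed by the authors per sample, sum to between 999766 and 999897. A mean normalized count per gene is a signal pooled over samples by the authors. The authors' own log2 fold changes and adjusted p-values for each inhibitor in each genotype are in the deposited table and were not used.

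Here 16383 genes above the 10th percentile of the mean normalized count were fitted with 6 group means over all samples (limma 3.58.1, R 4.3.3), with moderated variances that follow a trend on log2(mean normalized count + 1), and tested by 9 contrasts. The fixed plan named a variance trend without its covariate. This covariate was settled after the numbers of genes called were compared with those of an earlier limma description of the same table, not of the paper, which it matched, so that match is no independent check. The trend on log2(mean normalized count) was therefore added as an alternative after seeing the data. Inhibitor contrasts of a genotype and the genotype contrast under vehicle share vehicle samples. The difference of effects was called on the adjusted p alone. Named genes are the members, other family genes and neighbours in the table, genes of fixed lists (at most 5 called per comparison by adjusted p, otherwise up to 2 by p), fixed markers, Ctbp1 and Ctbp2, and the 3 nearest in pattern. Tests of Gm18445 and Ifi202b were picked after their values were seen. The members and lists were chosen with earlier results of these data known. Words and promoters came from the Gencode annotation and GRCm39 genome at hand, a later release than the authors', searched over 481956 transcripts (Python 3.11.15, numpy 2.4.6). The test and the searches were tested on simulated data. Alternatives were another pseudocount, other filters, fewer groups in the fit, a replicate block, no variance trend, median-ratio scaling and the omission of each sample. A result for 1 gene of the lists is not reported here.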

Additional observations from a re-analysis of the deposited data

How the results depend on the processing

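Of the 238 values of called members under the alternatives, 219 kept their direction and their call, 19 lost the call and 0 changed sign. Of the 977 values of members not called, 923 stayed so in direction and call, 2 became called and 52 changed sign. Which single members are described below was narrowed after all of these had been run: called members, Ifi207, and Aim2, Ifi203 and Ifi211 between genotypes. The number of members called stayed within 1.5 times in all comparisons with a pseudocount of 0.1, no filter, a mean normalized count of at least 10, no variance trend and median-ratio scaling. The variance trend on log2(mean normalized count), chosen after seeing the data, left every count of members as it was. When only the groups compared were fitted, 0 members were called for MTOB in wildtype, for MTOB in dKO and for 4-Cl-HIPP in wildtype cells, in place of 1 each. This fit has fewer samples to estimate the spread. Leaving out 1 sample gave 0 to 1 members for MTOB in dKO and for 4-Cl-HIPP in wildtype cells.

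With the replicate number as a block (replicate block), the counts were 1 for MTOB in each genotype, 1 and 0 for 4-Cl-HIPP in wildtype and dKO, 5, 4 and 5 between genotypes under vehicle, MTOB and 4-Cl-HIPP, and 0 for both differences of effects, so no count of calls moved. No pairing by number was seen: over 21 same-numbered pairs the deviations from the group means correlated by -0.133 to 0.0909, and in 6 the best match had its own number. With 3 samples per group this does not show whether samples of a number were handled together.

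The differences of these members that changed sign were not called before or after. The MTOB effect on Ifi207, wildtype minus dKO, was -0.0116 without wildtype vehicle replicate 3 and -0.0208 without dKO MTOB replicate 1, in a leave-one-out range of -0.0208 to 0.257. Between genotypes under MTOB, Aim2 was at 0.0304 without wildtype MTOB replicate 1 and at 0.0682 without dKO MTOB replicate 1, in a range of -0.147 to 0.0682. Under 4-Cl-HIPP, Ifi211 was at 0.0373 without dKO 4-Cl-HIPP replicate 3, in a range of -0.320 to 0.0373. Ifi211 was called between genotypes under vehicle with no variance trend (0.70, adjusted p = 0.0479, limma, Benjamini-Hochberg) and without wildtype vehicle replicate 3 (0.90, adjusted p = 0.0179), and its adjusted p reached 0.214 over the alternatives.

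Depth per sample is unknown, and Ifi205, Ifi209 and Ifi211 had too few reads to limit a difference. The clone of the dKO cells and the genotype cannot be told apart.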
